A study of Mus musculus with 64 samples.

Results

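The hypoxia-inducible factor family and its regulators were followed here as 10 genes in RNA-seq counts of mouse hippocampus and liver, with and without corticosterone (CORT), the main glucocorticoid of the mouse. The genes were taken by their Ensembl identifiers, and all 10 were found among 55414 genes counted in the acute experiment and 55573 counted in the continuous experiment. They were the alpha subunits Hif1a, Epas1 and Hif3a, the beta subunits Arnt and Arnt2, the prolyl hydroxylases Egln1, Egln2 and Egln3, the ubiquitin ligase subunit Vhl and the asparaginyl hydroxylase Hif1an. Hif3a is on the list because it responds to CORT in hippocampus. Its hippocampal response is therefore given as a description, without a test, and counts for the hippocampal comparisons are over the other 9 genes.

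A hypoxia-inducible factor is a pair of proteins, an alpha subunit whose stability depends on oxygen and a beta subunit that is present at all times, and the pair binds short DNA elements near genes of glucose uptake, glycolysis, blood vessel growth and red cell production. When oxygen is plentiful, prolyl hydroxylases mark the alpha subunit, VHL binds the marked protein and has it degraded, and the asparaginyl hydroxylase blocks what is left from recruiting coactivators. HIF3A differs from HIF1A and EPAS1 in that several of its isoforms lack the main activation domain and can restrain the other alpha subunits. Most of this control acts on protein, which was not measured here.

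Acute cohort mice were wild type (WT) or Angelman syndrome (AS) males, which received CORT under the skin at 3 mg/kg, or its vehicle, and the hippocampus was taken 3 h later from 24 mice, 6 in each group. In the continuous cohort, mice carried slow-release pellets under the skin for 5 days, which held either 20 mg of CORT or vehicle, and hippocampus and liver were taken from 20 mice, 5 in each group. All were F1 hybrids of C57BL/6J fathers and 129sv mothers, 10 to 18 weeks old, and WT and AS mice were littermates. AS mice were Ube3am-/p+, that is, they inherited the Ube3atm1Alb allele, which lacks exon 5, from the mother only. Because the paternal copy is silent in neurons and active elsewhere, this is a model of neuronal loss of UBE3A, and liver and glial cells keep 1 working copy.

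Libraries held between 18612550 and 21783009 counts on genes, and a floor of 3 counts per library came to 0.133 to 0.16 CPM (counts scaled to a library total of 1000000), so that all members other than Hif3a and Arnt2 in liver were far above it. The study left hippocampal libraries H9 and H13 of the continuous cohort out as technical outliers, and they were left out here, which made each hippocampal vehicle group of that cohort 4 mice. In the acute cohort, the WT CORT library H8 stood apart, and libraries H17 to H24 (2 of the 6 AS vehicle and all 6 AS CORT libraries) carried 2640 to 2850 reads of low alignment quality against 1877 to 2237 in the other 16. AS CORT and this division are thus confounded, but for the AS vehicle libraries H17 and H18. The glucocorticoid target Fkbp5 rose with CORT in all 6 CORT comparisons, by 0.58 to 4.14 on the log2 scale. Gene-level Ube3a did not separate the genotypes in hippocampus (log2 difference -0.06 ± 0.09 (SE) in acute and -0.05 ± 0.10 in continuous vehicle mice). It therefore gave no check of the genotype labels there, and the reason was not tested, since the deleted exon was not counted apart. In AS vehicle liver Ube3a fell by 0.55 ± 0.09 on the log2 scale (adjusted p = 0.0191). All 4 neuronal markers were counted in every hippocampal library and all 6 hepatocyte markers in every liver library, with summed levels of at least 9450 and 93000 CPM.

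The sequences before the starts of Hif3a and of 2 members that moved in liver are shown because factors of this family and the glucocorticoid receptor both act through short DNA elements. Each line gives the 250 bases before the RefSeq start (GRCm38.p6), read 5′ to 3′ on the gene's own strand, with every match to either form of the hypoxia response core, which begins with A (ACGTG) or with G (GCGTG), on either strand in capitals. The Hif3a window lies at chr7:17062428-17062677 (minus strand), that of Egln1 at chr8:124949255-124949504 (minus strand) and that of Arnt at chr3:95434140-95434389 (plus strand).
Hif3a: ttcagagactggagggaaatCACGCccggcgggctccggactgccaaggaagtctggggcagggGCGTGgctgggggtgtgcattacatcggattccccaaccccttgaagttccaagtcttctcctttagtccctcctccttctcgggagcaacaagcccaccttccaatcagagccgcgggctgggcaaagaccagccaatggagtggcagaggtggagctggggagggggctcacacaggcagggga
Egln1: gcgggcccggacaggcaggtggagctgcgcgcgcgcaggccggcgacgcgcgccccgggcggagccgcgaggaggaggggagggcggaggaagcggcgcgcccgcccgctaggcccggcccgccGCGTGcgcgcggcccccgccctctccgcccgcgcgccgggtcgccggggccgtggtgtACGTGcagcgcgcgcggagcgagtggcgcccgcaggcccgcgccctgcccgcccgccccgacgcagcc
Arnt: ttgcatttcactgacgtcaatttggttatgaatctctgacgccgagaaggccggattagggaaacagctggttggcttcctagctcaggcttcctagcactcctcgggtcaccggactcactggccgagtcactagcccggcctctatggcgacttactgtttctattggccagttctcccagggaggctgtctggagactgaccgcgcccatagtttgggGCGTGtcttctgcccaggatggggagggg
Hif3a carried 2 GCGTG cores, whose first bases lay 230 and 186 bases before the start, Egln1 carried 1 ACGTG and 1 GCGTG, and Arnt carried 1 GCGTG. At least 1 core of either form was present in 6 of the 9 members with an entry (Epas1 was named only), against 43.8% of 32841 mouse promoters of the same length, 300 bases from 250 before to 50 after the start. The glucocorticoid response hexamer AGAACA, on either strand, was in no member's window and in 19% of all promoters. A pair of that hexamer and its reverse complement 3 bases downstream, with up to 2 mismatches in all, was likewise in none of these windows and in 1.85% of all promoters. These matches describe letters in a short window and are not measured binding sites.

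Levels per length set the scale of the family before any treatment. Counts were divided by exon length (CPM per kb of exon) to compare genes with each other. In WT vehicle hippocampus of the continuous cohort, Arnt2, the neuronal beta subunit, stood highest at 34.6 ± 2.04 (SD, n = 4), followed by Egln2 at 30.3 ± 0.891, Epas1 at 26.8 ± 2.53 and Egln1 at 24.1 ± 1.4. The lowest Arnt2 library lay above the highest Egln2 library, whereas Egln2 overlapped Epas1 and Epas1 overlapped Egln1. Vhl (17.2 ± 0.501), Hif1a (10.6 ± 0.242) and Hif1an (7.85 ± 0.2) followed, each separate from the next. Arnt (3.3 ± 0.329) and Egln3 (2.59 ± 0.627) overlapped each other. Hif3a was the lowest member, at 0.682 ± 0.346, and did not overlap Egln3. The acute cohort gave the same first and last members, with Arnt2 at 34.2 ± 1.41 and Hif3a at 1.55 ± 0.316 (n = 6), but Arnt2 there overlapped Epas1 at 34 ± 2.77, and Vhl (11.6 ± 0.748) overlapped Hif1a (11.4 ± 0.815).

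In WT vehicle liver the order was different. Epas1 (32.7 ± 3.38, n = 5) and Egln2 (24.1 ± 3.65) stood highest and overlapped, Egln1 (7.96 ± 0.722), Egln3 (7.92 ± 1.17), Hif1a (5.87 ± 0.668), Hif1an (5.47 ± 0.212) and Arnt (4.49 ± 0.533) each overlapped the next, and Vhl (3.66 ± 0.204) stood below them. Hif3a and Arnt2 were close to nothing. Arnt2 gave 2, 0, 4, 0 and 1 counts in the 5 WT vehicle livers, against 22389 counts summed over 4 WT vehicle hippocampi, so no fold is given.

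**Figure D1:**
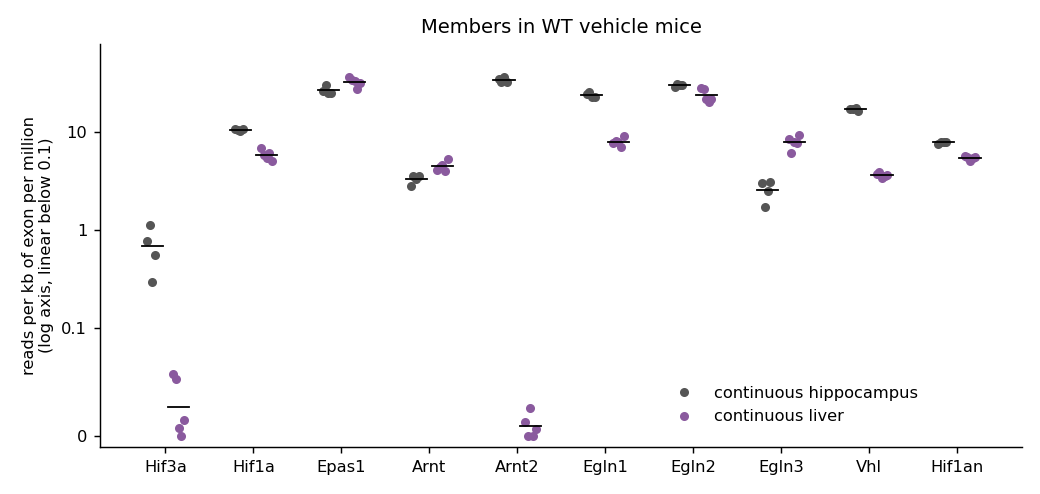
CPM per kb of exon for the 10 members in WT vehicle mice of the continuous cohort, on a log axis that is linear below 0.1, with 1 point per library (4 hippocampus, 5 liver) and a line at the mean. Arnt2 stands near 34.6 in hippocampus and near 0 in liver, and Hif3a is the lowest hippocampal member. Each tissue was scaled on its own, so the heights of a gene in hippocampus and liver are not on a common scale.

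The comparison of liver with hippocampus in WT vehicle mice asked which members are tissue-biased. Hif3a and Arnt2 were left out of the count, because they passed the filter on low counts only through hippocampus, where they are high. Of the 8 members that passed the filter in each tissue, 7 passed the test, but 86.4% of the 11017 genes that did so passed as well (89.6% of all 15937 genes), and the count alone is no result about the family. Egln3, a prolyl hydroxylase that is itself a classical hypoxia target, was 5.72-fold higher in liver (log2 difference 2.52 ± 0.16 (SE), adjusted p = 4.73e-17). By this fit, which scaled both tissues together, Arnt (1.35 ± 0.09), Epas1 (1.19 ± 0.08), Egln2 (0.58 ± 0.08) and Hif1an (0.39 ± 0.05) were also higher in liver on the log2 scale. Vhl (-1.32 ± 0.09) and Egln1 (-0.69 ± 0.07) were lower in liver. Hif1a did not pass, with a log2 difference of 0.05 ± 0.08 (adjusted p = 0.562) that became -0.04 with DESeq2 size factors. These differences are relative to TMM scaling over both tissues at once, whereas the levels per length above were scaled within each tissue. By those levels Hif1a (10.6 in hippocampus, 5.87 in liver), Egln2 (30.3, 24.1) and Hif1an (7.85, 5.47) were lower in liver. Egln3 (2.59, 7.92), Arnt and Epas1 were higher in liver by both scalings, and Vhl and Egln1 lower. The sizes, and the direction for Hif1a, Egln2 and Hif1an, thus depended on the scaling. In such bulk samples fewer cells of a type and less RNA per cell cannot be told apart.

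Hif3a was higher after CORT in every hippocampal library than in every vehicle library of the same genotype and cohort. Hif3a (chr7:17031507-17062427, minus strand, GRCm38) encodes the alpha subunit that can restrain the others, and its counts sum over 4 annotated transcripts, which gene-level counts cannot separate. In the acute cohort, WT vehicle libraries ran from 6.77 through a median of 11.5 to 12.1 CPM, and WT CORT libraries from 17.9 through 27.3 to 28.6. AS vehicle libraries ran from 5.19 through 9.2 to 10.3 CPM, and AS CORT libraries from 16.2 through 22.2 to 25.6. The vehicle and CORT ranges did not overlap in either genotype, and library H8 was the lowest of the WT CORT libraries. The fitted ratio was 2.43-fold in WT (log2 1.28 ± 0.15 (SE)) and 2.56-fold in AS mice (1.36 ± 0.15), given here without a test.

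For Hif3a, the AS vehicle libraries H17 (5.19 CPM) and H18 (7.2 CPM), which fall on the AS CORT side of the division by low-quality reads, were the lowest of their group. With them as the only AS vehicle libraries the log2 ratio in AS mice was 1.80 ± 0.23, and without them it was 1.16 ± 0.15, so its size but not its direction moved with that choice. Without library H8 the WT ratio was 1.365 ± 0.142 on the log2 scale.

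After 5 days of CORT pellets the separation was wider. WT vehicle hippocampi gave 5.18, 7.44, 1.96 and 3.72 CPM of Hif3a, and WT CORT hippocampi gave 16.7, 15.9, 19.6, 21.3 and 17.9. AS vehicle hippocampi gave 3.82, 1.94, 2.44 and 2.15 CPM, and AS CORT hippocampi gave 23.7, 18.6, 22.2, 28.6 and 24.1. The highest vehicle library of both genotypes, 7.44, lay below the lowest CORT library, 15.9, while vehicle libraries of the 2 genotypes overlapped. The fitted ratio was 3.96-fold in WT (log2 1.98 ± 0.24) and 9.03-fold in AS mice (3.175 ± 0.259). The 2 libraries that were left out, H13 of WT and H9 of AS vehicle mice, stood at 3.32 and 2.75 CPM, within their groups.

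**Figure D2:**
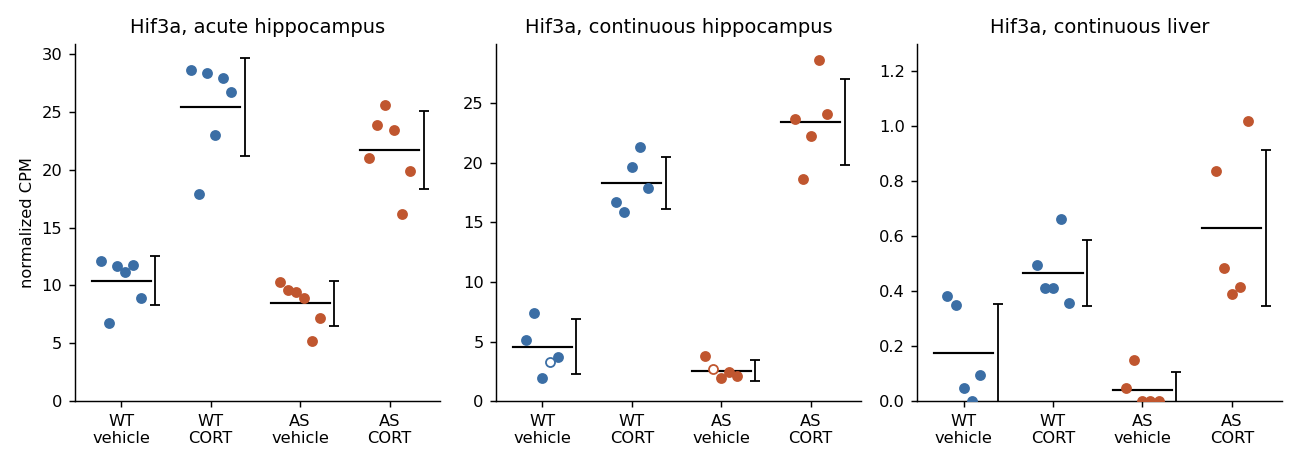
Normalized CPM of Hif3a, 1 point per library, in the acute hippocampus, continuous hippocampus and continuous liver, by genotype and treatment, each panel with its own linear axis from 0. Lines mark group means and bars the SD, and open points are the 2 libraries left out of the fits. The lowest CORT library lies above the highest vehicle library of its genotype in both hippocampal panels (17.9 over 12.1 CPM in acute WT mice), and the liver panel stays at or under 1.02 CPM.

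The AS and WT values of Hif3a are set side by side as a description, without a test, since the list was chosen on its response in these same hippocampal libraries. In the acute cohort the AS log2 ratio exceeded the WT ratio by 0.08 ± 0.21. Its sign turned with the handling of the libraries, from -0.121 without H17 and H18 to 0.522 with a covariate for libraries H17 to H24. In the continuous cohort the AS ratio was larger by 1.19 ± 0.35 on the log2 scale, and it stayed between 0.855 and 1.44 when any 1 library was dropped or another normalization or tool was used. There the log2 difference of AS from WT mice was -0.83 ± 0.29 with vehicle and 0.36 ± 0.20 with CORT, and the interaction is built from these same values.

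Several marker lists moved with the pellets in the same hippocampal libraries. The sum of 5 astrocyte markers was 1360 to 1530 CPM in WT vehicle and 978 to 1150 in WT CORT libraries, and 1220 to 1330 in AS vehicle and 997 to 1170 in AS CORT libraries. Sums of 4 microglial markers (219 to 244 against 182 to 204 CPM in WT mice) and of 5 pericyte and smooth muscle markers (100 to 123 against 80.7 to 96.8) were also lower without overlap in WT CORT mice, as was that of 6 brain endothelial markers (167 to 194 against 134 to 159), while that of 5 blood markers was higher (41.1 to 59.2 against 75.9 to 187). In AS mice the microglial sums also did not overlap (201 to 225 against 176 to 198 CPM), whereas those of pericytes (96.2 to 119 against 71.7 to 97.6), endothelium (157 to 180 against 130 to 176) and blood (53.5 to 119 against 37.9 to 175) did. The sum of 7 choroid plexus markers varied most, from 77.8 to 2920 CPM (median 683) in WT vehicle and 36.9 to 128 (median 103) in WT CORT libraries, and from 85 to 329 (median 151) in AS vehicle and 46.8 to 506 (median 96.8) in AS CORT libraries. Sums of 5 oligodendrocyte markers overlapped, with medians of 4360 and 2690 CPM in WT vehicle and CORT libraries (1940 to 5540 and 2040 to 5510). In AS vehicle and CORT libraries the medians were 4750 and 3990 (2360 to 6000 and 3280 to 5570), again with overlap. All genes of these lists were counted in every library, other than 1 choroid plexus gene in WT CORT mice. Their part in the Hif3a values was not tested. In the acute cohort the astrocyte sums overlapped between treatments (1050 to 1280 CPM in WT vehicle, 1060 to 1230 in WT CORT, 1020 to 1180 in AS vehicle and 1140 to 1250 in AS CORT libraries). The sum of 5 oligodendrocyte markers had medians of 3160 and 3200 CPM in WT vehicle and CORT libraries, and of 3420 and 2250 in AS vehicle and CORT libraries. The blood sum had medians of 65.4 and 113 CPM in WT vehicle and CORT libraries (51.2 to 147 and 92.4 to 184), and of 103 and 99.5 in AS libraries. The choroid plexus sum reached 1080 CPM in 1 WT vehicle library, against a median of 43.9 in that group and at most 60.5 in the other 3 groups, and the endothelial sum was lower in AS CORT than in AS vehicle libraries (115 to 133 against 144 to 173).

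No other member passed the test for CORT in hippocampus. In the acute cohort 0 of the 9 other members passed in WT mice, where 1.48% of 14611 genes did, and 0 of 9 in AS mice, where 17.9% did. In the continuous cohort 0 of 9 passed in WT mice and 0 of 9 in AS mice, where 2.92% and 3.77% of 14949 genes did. At an unadjusted p under 0.05 there were 2 of these members in acute WT mice (Hif1a and Egln2), 0 in acute AS mice, 2 in continuous WT mice (Hif1a and Egln2) and 3 in continuous AS mice (Epas1, Egln2 and Vhl). At that unadjusted threshold stood 10.7%, 33.5%, 15.6% and 15.2% of all genes in the same 4 comparisons. By adjusted p, the counts were 0 with DESeq2, limma-voom and every other alternative as well.

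Among the alpha subunits, Hif1a, the subunit of the acute hypoxic response, was 59.3, 69.7 and 71.6 CPM (lowest, median and highest) in acute WT vehicle and 51.7, 61.8 and 64.7 in acute WT CORT libraries, which overlapped. Its log2 ratio of -0.19 ± 0.06 was the most negative of the 9 genes in that comparison (adjusted p = 0.159), and it was 0.04 ± 0.06 in AS mice. In the continuous cohort Hif1a was 61.1 to 64.4 CPM in WT vehicle and 54.8 to 61 in WT CORT libraries, which did not overlap, with a log2 ratio of -0.12 ± 0.055 (adjusted p = 0.305), against 0.02 ± 0.055 in AS mice, whose libraries overlapped. Epas1, which encodes the alpha subunit best known from vessels and erythropoietin control, gave 0.09 ± 0.08 and -0.01 ± 0.08 in acute WT and AS mice, and -0.03 ± 0.07 and 0.17 ± 0.07 in continuous WT and AS mice. Every value was under 0.2 in size.

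The beta subunits stayed close to their vehicle levels. Arnt, the partner used in most cells, gave log2 ratios between -0.05 and 0.05, and Arnt2 gave ratios between -0.15 and 0.08 over the 4 hippocampal comparisons. Of the hydroxylases, Egln1, the main oxygen sensor, gave -0.025 to 0.11, Egln2 gave 0.07 to 0.14, Egln3 gave -0.085 to 0.21 with the widest errors of the 9 genes (0.122 to 0.165), and Hif1an gave -0.02 to 0.09. Egln2 was the only one of the 9 with positive ratios above 0.05 in all 4, its largest being 0.14 ± 0.05 in continuous WT mice (adjusted p = 0.113). There its vehicle and CORT libraries did not overlap, at 82.2 to 88.1 and 88.2 to 97.9 CPM, nor did those of Hif1an, at 49.9 to 52.9 and 53.3 to 58.9 CPM (log2 ratio 0.09 ± 0.05, adjusted p = 0.355). Vhl gave -0.12 ± 0.05 in continuous AS mice (adjusted p = 0.172), where vehicle libraries of 49.7 to 51.8 CPM lay above CORT libraries of 45.5 to 48.7. A p that misses the threshold does not show that these levels were equal. No log2 ratio of the 9 genes in the 4 comparisons was above 0.21 in size, with standard errors of up to 0.165.

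**Figure D3:**
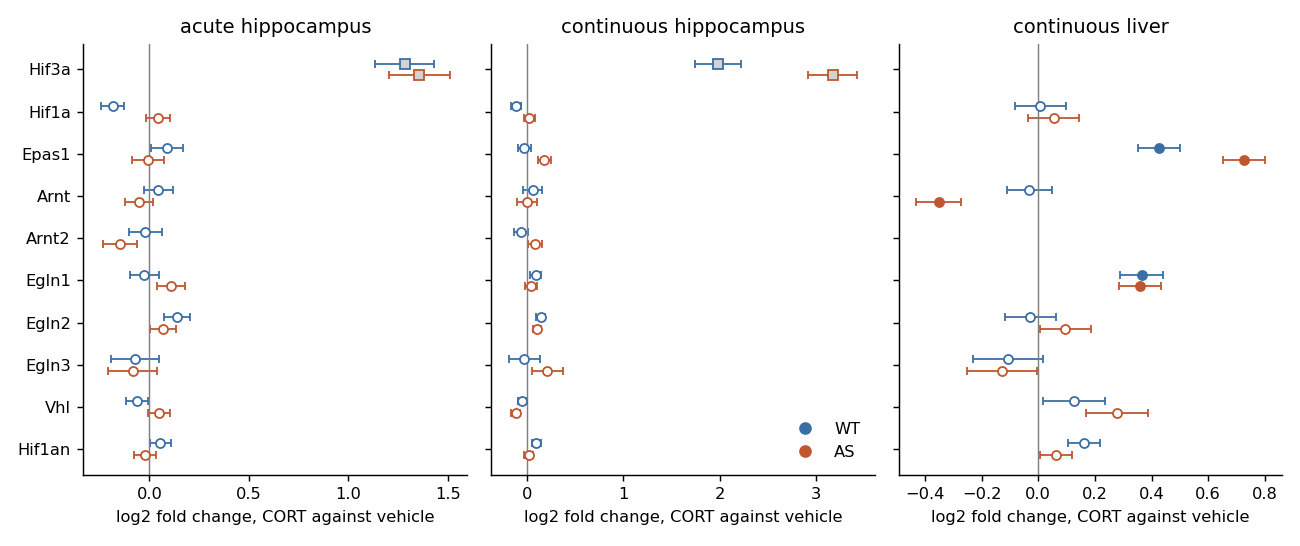
Log2 fold change of CORT against vehicle for each member in the acute hippocampus, continuous hippocampus and continuous liver, with bars of 1 standard error, WT in blue and AS in orange; the 3 horizontal scales differ. Filled circles passed an adjusted p of 0.05, open circles did not, and grey squares are the Hif3a values given without a test. Hif3a stands at 1.28 to 3.175 in hippocampus, while Epas1, Egln1 and, in AS mice, Arnt are the members that passed in liver.

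Genotype alone moved none of the members tested past the threshold. With vehicle, 0 of the 9 members other than Hif3a differed between AS and WT mice in acute hippocampus (0.157% of all genes did), 0 of 9 in continuous hippocampus (0.0134%) and 0 of 8 tested members in liver (0.0163%). At an unadjusted p under 0.05 there were 2, 1 and 1 of these members, against 9.54%, 7.34% and 10.3% of all genes. With CORT, 0 of 9 members differed in acute hippocampus, against 24.9% of all genes, 0 of 9 in continuous hippocampus (0.0401%) and 0 of 8 in liver (0.277%). At an unadjusted p under 0.05 there were 1, 2 and 0, against 37.9%, 10.2% and 8.29% of all genes. The acute count with CORT rests on the confounded AS CORT libraries and was 1 without library H8 (Epas1, -0.24 on the log2 scale, from -0.17 ± 0.08) and 2 with limma-voom (Epas1 and Hif1an). With a covariate for libraries H17 to H24 no member passed, and these differences turned from negative to positive for Hif3a (0.399), Epas1 (0.034), Hif1an (0.003), Egln3 (0.095, from -0.179) and Vhl (0.076, from -0.033), and from positive to negative for Hif1a (-0.013, from 0.119). The interaction of genotype and CORT was past the threshold for 0 of 9 members in acute hippocampus (4.49% of all genes), 0 of 9 in continuous hippocampus (0%) and 0 of 8 in liver (0%). At an unadjusted p under 0.05 there were 1, 1 and 2, against 23.6%, 3.75% and 8.11% of all genes. DESeq2 gave 0 in all 9 of these comparisons. The smallest acute interaction p belonged to Hif1a, with 0.23 ± 0.08 on the log2 scale (adjusted p = 0.0995), and it passed with limma-voom and without the AS vehicle libraries H17 and H18.

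In liver, Epas1 and Egln1 rose with the CORT pellets in both genotypes, and Arnt fell in AS mice. This was 2 of 8 tested members in WT mice, where 18.6% of 12273 genes passed, and 3 of 8 in AS mice, where 27.5% did, so the shares are near the background of a liver that responded widely. Hif1a, Egln2 and Egln3 did not pass in either genotype, with log2 ratios from -0.13 to 0.10.

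Epas1 (chr17:86753700-86833410, plus strand) gave 204, 193, 185, 154 and 178 CPM in WT vehicle livers and 223, 265, 268, 238 and 234 in WT CORT livers. In AS mice it gave 183, 152, 159, 170 and 161 CPM with vehicle and 271, 282, 271, 255 and 286 with CORT. The CORT livers lay above the vehicle livers in both genotypes, without overlap. The log2 ratio was 0.43 ± 0.07 in WT (1.34-fold, adjusted p = 0.000374) and 0.73 ± 0.07 in AS mice (1.65-fold, adjusted p = 6.36e-07). The difference of the ratios, 0.30 ± 0.105, did not pass (unadjusted p = 0.0101, adjusted p = 0.494).

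Egln1 (chr8:124908587-124949324, minus strand), whose upstream window is printed above, gave 27.6, 29.4, 28.2, 25.4 and 32.5 CPM in WT vehicle and 38.2, 37.6, 34.1, 34 and 40.4 in WT CORT livers. AS vehicle livers gave 29.6, 29.9, 27.7, 32 and 26.1 CPM and AS CORT livers 38.3, 35.9, 33.5, 40.4 and 38.5. The groups again did not overlap, and the ratios were alike in size, at 0.365 ± 0.075 in WT (1.29-fold, adjusted p = 0.00163) and 0.36 ± 0.08 in AS mice (1.28-fold, adjusted p = 0.00124), with a difference of -0.005 ± 0.106.

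Arnt (chr3:95434388-95497240, plus strand), the beta subunit that liver cells use, gave 41.2, 47.1, 43.1, 40.7 and 40.9 CPM in AS vehicle livers and 34.5, 33, 36.9, 28.6 and 33.8 in AS CORT livers, with no overlap. On the log2 scale it fell by 0.35 ± 0.08 in AS mice (adjusted p = 0.00239). WT livers overlapped, with 32.8, 35.4, 37.3, 31.8 and 42.6 CPM after vehicle and 33.1, 33.6, 35.1, 37.6 and 36.6 after CORT, and a log2 ratio of -0.03 ± 0.08. The AS vehicle livers were the highest of the 4 groups, and neither the genotype difference with vehicle (0.24 ± 0.08, adjusted p = 0.291) nor the interaction (-0.32 ± 0.11, adjusted p = 0.493) passed.

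Vhl and Hif1an stood near the threshold. Vhl gave 0.13 ± 0.11 in WT and 0.28 ± 0.11 in AS livers (adjusted p = 0.471 and 0.0642), and Hif1an gave 0.16 ± 0.06 in WT and 0.06 ± 0.06 in AS livers (adjusted p = 0.0549 and 0.46). Vhl passed in AS mice with limma-voom and when any 1 of the 4 libraries L2, L14, L8 and L10 was left out, and Hif1an passed in WT mice with limma-voom, with DESeq2 (adjusted p = 0.0411) and without the AS vehicle liver L19. Hif1an livers did not overlap in WT mice, at 33.9 to 37.3 CPM with vehicle and 38.8 to 43 with CORT.

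**Figure D4:**
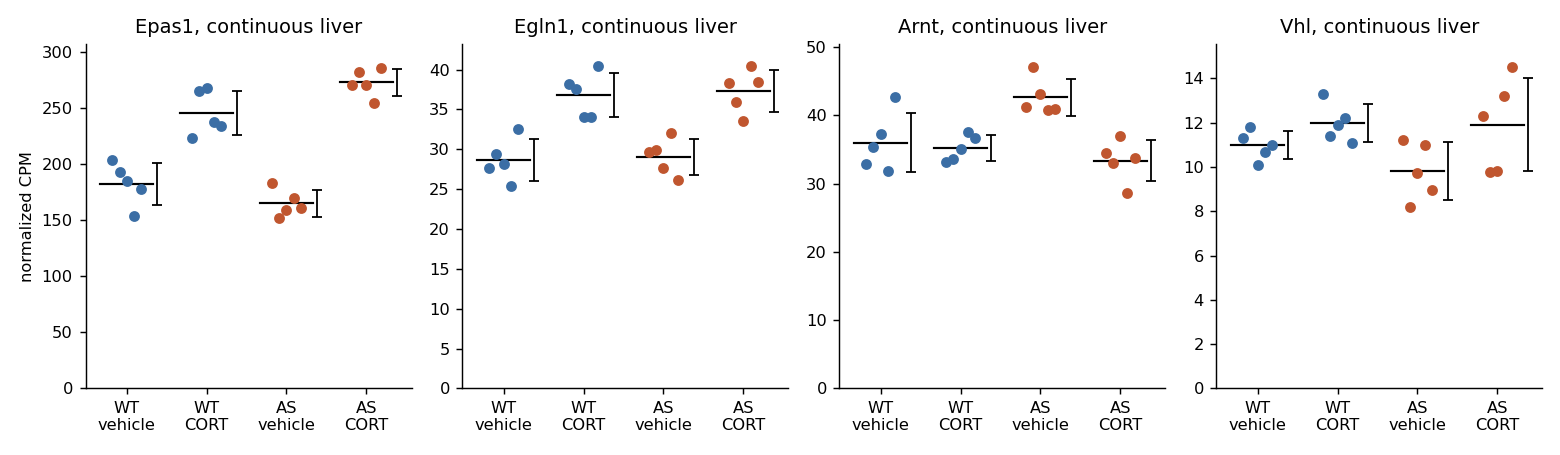
Normalized CPM of Epas1, Egln1, Arnt and Vhl in continuous liver, 1 point per library (5 per group), with lines at group means and bars of 1 SD, on linear axes from 0. Epas1 and Egln1 CORT livers lie above vehicle livers in both genotypes, Arnt is lower with CORT in AS mice, at 28.6 to 36.9 against 40.7 to 47.1 CPM, and Vhl groups overlap.

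Markers of liver macrophages moved in the same livers. The sum of 4 Kupffer cell markers was 107 to 141 CPM in WT vehicle and 51.4 to 76.4 in WT CORT livers, and 139 to 196 in AS vehicle and 53.7 to 78.6 in AS CORT livers, with all 4 genes counted in every liver library. The hepatocyte sum (6 genes) was 96200 to 112000 and 98800 to 117000 CPM in WT vehicle and CORT livers, and 93000 to 125000 and 116000 to 140000 in AS livers. The sum of 5 blood markers was 343 to 574 and 229 to 328 CPM in WT vehicle and CORT livers, and 243 to 475 and 124 to 192 in AS livers. The sum of 4 sinusoidal endothelial markers overlapped between treatments (90.4 to 148 against 88.1 to 142 CPM in WT mice). The part of these cells in the member values was not tested.

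Hif3a was barely counted in liver and was below the filter for the fit. WT vehicle livers gave 8, 7, 1, 0 and 2 counts and WT CORT livers 10, 8, 8, 13 and 7, while AS vehicle livers gave 1, 3, 0, 0 and 0 and AS CORT livers 16, 10, 8, 8 and 19. The WT groups overlapped and the AS groups did not. An exact two-sided permutation test of CPM, 5 mice against 5, gave p = 0.0159 in WT and p = 0.00794 in AS mice, the smallest that the design allows, and 0.0318 for both after Benjamini-Hochberg adjustment over 4 tests of the members below the filter. In a fit over all genes without a filter the AS difference passed (adjusted p = 0.000393) and the WT difference did not (adjusted p = 0.18). Every AS vehicle liver was at or under the floor of 3 counts, so no fold is given. Arnt2 gave 0 to 4 counts in every liver (exact permutation p = 0.405 in WT and 0.563 in AS mice), too few to show a difference.

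The CORT effect in liver was set against that in hippocampus of the same cohort, averaged over genotypes. It was larger in liver for Epas1 (0.53 ± 0.08 on the log2 scale, adjusted p = 2.09e-06), Egln1 (0.33 ± 0.07, adjusted p = 0.000594) and Vhl (0.32 ± 0.09, adjusted p = 0.00654). These were 3 of the 8 members that passed the filter in each tissue, against 24% of the 11017 genes that did so and 19.9% of all genes. Vhl passed although it passed in neither tissue alone, since its ratios were below 0 in hippocampus and above 0 in liver, and with H9 and H13 kept in the fit the Vhl difference (0.26) no longer passed. Hif3a and Arnt2 were not compared in this way, for their few liver counts.

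Target genes of the pathway were read from a list of 36, with glucose transport, glycolysis, vessel growth and mitochondrial turnover genes. This list and that of partners below were chosen with earlier results of these data known, so their shares are no independent test. In acute hippocampus 5 of 32 tested targets passed in WT mice (4 up, 1 down, median log2 ratio 0.06 against 0.00 over all genes) and 6 of 32 in AS mice (5 up, 1 down, median 0.00 against 0.01). These were 15.6% of targets against 1.48% of all genes in WT mice, and 18.8% against 17.9% in AS mice, where the share was near the background. Slc2a1, the glucose transporter of the blood-brain barrier, rose in both, by 0.94 ± 0.07 in WT (adjusted p = 3.78e-09) and 0.92 ± 0.07 (log2) in AS mice (adjusted p = 2.62e-09). Angptl4, a secreted inhibitor of lipoprotein lipase, rose by 0.77 ± 0.19 and 0.81 ± 0.19. The others passed in 1 genotype each. In WT mice these were Pfkfb4 (0.36 ± 0.08), P4ha2 (0.39 ± 0.10) and, downward, Car12 (-0.43 ± 0.09), and in AS mice Kdm3a (0.24 ± 0.06), Ddit4 (0.35 ± 0.11), Higd1a (0.21 ± 0.06) and, downward, Gapdh (-0.24 ± 0.07). Gapdh was 0.11 ± 0.07 in WT mice and did not pass there. All AS CORT libraries lie in the division H17 to H24, and target genes were not refitted with that division.

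In continuous hippocampus 2 of 34 targets passed in WT mice, both up, and 4 of 34 in AS mice, 3 up and 1 down, with medians of 0.04 and 0.00. These were 5.88% of targets against 2.92% of all genes in WT mice, and 11.8% against 3.77% in AS mice. Aldoc, the astrocytic form of the glycolytic aldolase, rose by 0.55 ± 0.06 in WT and 0.66 ± 0.06 in AS mice, and Ddit4, an inhibitor of mTORC1 that is also a known glucocorticoid target, by 0.53 ± 0.08 and 0.55 ± 0.08. In AS mice Slc2a1 also rose (0.54 ± 0.10) and Car12 fell (-0.79 ± 0.22). The astrocyte marker sums given above moved the other way to Aldoc in the same libraries.

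In liver 10 of 29 tested targets passed in WT mice (8 up, 2 down), which was 34.5% against 18.6% of all genes, and 17 of 29 in AS mice (11 up, 6 down), which was 58.6% against 27.5%. Their median log2 ratios were 0.24 and 0.16, against 0.00 over all genes in both. The overlap of calls between genotypes was not computed over all genes, so that of the targets is a description and no result about the list. Targets called in both genotypes were 8, which was 80% of the WT and 47.1% of the AS calls, and all 8 had the same direction. Of these, the glycolytic genes Gapdh (0.52 ± 0.08 in WT, 0.47 ± 0.08 in AS mice), Pfkl (0.32 ± 0.06 in WT mice) and Eno1 (0.53 ± 0.10 in WT mice) rose, as did Ddit4 (2.16 ± 0.43 and 1.98 ± 0.43) and Adm, which encodes the vessel-dilating peptide adrenomedullin (1.31 ± 0.26 in WT mice). Aldoc and the hexokinase Hk1 fell in both genotypes, Aldoc by 1.49 ± 0.23 (log2) in AS mice. Pgk1 (0.28 ± 0.07) passed in WT mice, and the repressor Mxi1 (0.38 ± 0.08), the oxidoreductase gene Ero1l (0.33 ± 0.07) and, downward, Hk2 (-1.48 ± 0.32) in AS mice. Targets thus moved in both directions in liver, with more up than down in each genotype.

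**Figure D5:**
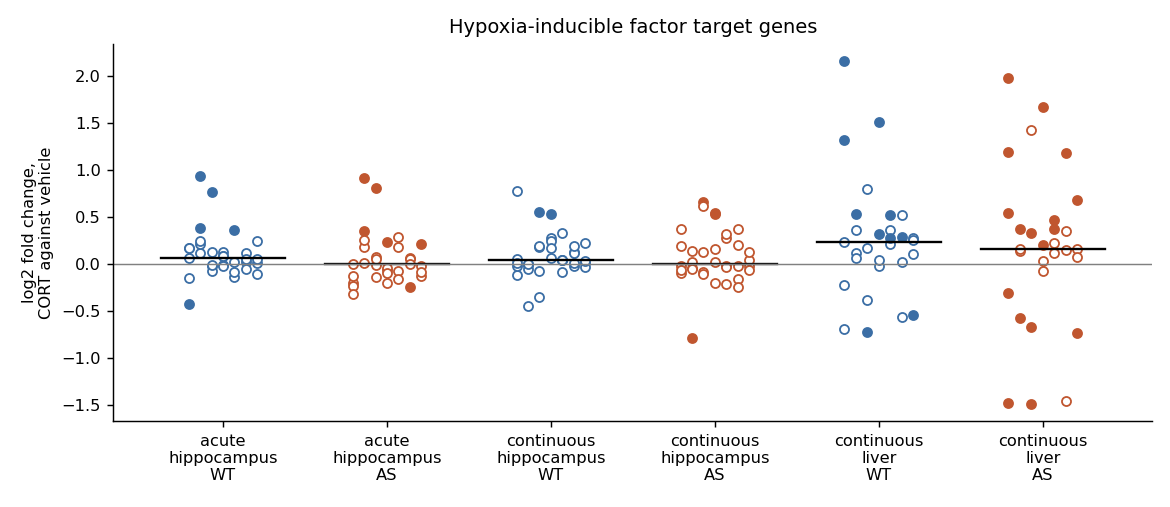
Log2 fold change of CORT against vehicle for each tested target gene (32, 34 and 29 genes in acute hippocampus, continuous hippocampus and continuous liver), 1 point per gene, filled where the adjusted p was under 0.05, with a line at the list's median; WT in blue and AS in orange. Hippocampal medians lie between 0.00 and 0.06, and liver medians at 0.24 and 0.16 with genes on both sides of 0.

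Partners of the family were read from a second list of 21 genes, of ubiquitin ligase subunits, coactivators and related factors of the same protein class. In acute hippocampus 0 of 19 tested partners passed in either genotype, against 1.48% of all genes in WT and 17.9% in AS mice. In continuous hippocampus 1 of 19 passed in each genotype, and it was Npas3 in both, a brain transcription factor of the same class, which fell by 0.48 ± 0.10 (log2) in WT and 0.38 ± 0.10 in AS mice. That was 5.26% of partners in each, against 2.92% and 3.77% of all genes. In liver 1 of 13 passed in each genotype, and it was Eloc in both, the elongin subunit that joins VHL in its ligase, which rose by 0.21 ± 0.07 and 0.28 ± 0.07. The share of 7.69% lay below the 18.6% and 27.5% of all genes.

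The genes whose hippocampal pattern was most like that of Hif3a were not members of the family. Over 24 acute libraries the highest Pearson correlations of log2 CPM with Hif3a were those of Map3k6 (0.959), Xdh (0.953), Slc2a1 (0.953), Plin4 (0.949) and Hacd2 (0.946). Over 18 continuous libraries they were Smox (0.964), Gm37885 (0.963), Plin4 (0.961), Sdc4 (0.959) and Fam83d (0.957). These libraries share the split into vehicle and CORT mice, and after the group means were taken out the correlations ranged from 0.421 (Plin4, continuous) to 0.814 (Gm37885, continuous). Of the other members, Egln2 was the most like Hif3a in both cohorts (0.429 and 0.693, and -0.05 and 0.12 within groups). The most unlike was Hif1a in acute (-0.275, and 0.003 within groups) and Vhl in continuous libraries (-0.623, and -0.129 within groups). Within groups the order was different, with Arnt2 (0.434) the highest and Egln2 the lowest in acute libraries. In continuous libraries Epas1 (0.493) was the highest within groups and Egln3 (-0.199) the lowest.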

How the data were processed

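RNA was taken from the left hippocampus and from liver, and stranded mRNA libraries were read as 100 bp pairs. Per the labels and the study's methods, the authors aligned reads to mm10 with STAR and counted them per gene with HTSeq (BioWDL v5.0.0, with FastQC and MultiQC); the deposited values are raw counts. The annotation release and the strand setting were not given in the sources used here. Rows that name no gene were left out, so genes held 84.1 to 87% (acute hippocampus), 86.1 to 88.3% (continuous hippocampus) and 76.7 to 84.6% (liver) of counted reads. Hif1a shares 148 exon bases with Gm49321 on its strand and 330 with the antisense Gm15283, Arnt2 214 with the antisense Gm30873 and Egln2 11 with Cyp2t4, which without a stated strand setting cannot be told apart.

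Groups came from the sample labels. The 10 members and all gene lists were chosen with earlier results of these data known. Genes with more than 20 normalized counts in at least 3 libraries of a group were fitted with edgeR 4.0.16 (TMM normalization, quasi-likelihood F test, 1 coefficient per group, R 4.3.3), separately for acute hippocampus, continuous hippocampus and liver, and once for both tissues, with Benjamini-Hochberg adjustment over all genes and a threshold of 0.05. Log2 CPM for correlations used a prior count of 2, and log2 ratios used the default of edgeR. Errors of log2 ratios are standard errors, taken in edgeR from the ratio and its F statistic. CPM were scaled by TMM, for continuous hippocampus over all 20 libraries, and per-length levels used exon unions of GENCODE M21 (GRCm38). Alternatives were DESeq2 1.42.0, its size factors, upper-quartile scaling, limma-voom 3.58.1 with quality weights, no filter, fits of only the 2 groups compared, left-out libraries and the library divisions. No label states separate litters or extractions, so p-values measure the spread between these mice. Named genes were the members, at most the 6 lowest adjusted p of each list and comparison, the 5 most like Hif3a, and Ube3a and Fkbp5. For Tsc22d3, read as a further check, log2 ratios of 0.53 to 1.74 were found for CORT. A symbol on several identifiers (Aldoa) was read from the longest. No pair of libraries held identical counts, and 0 columns had no sample. Promoter windows are RefSeq entries, found for 9 of the 10 members.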

Additional observations from a re-analysis of the deposited data

Results flagged for a closer look

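Among 120 groups of 4 to 6 libraries, 1 for each member, tissue, genotype and treatment, 3 held a library that stood far from the others, where chance gives about 1 group in 20. Egln2 was 81.5 CPM in the acute AS CORT library H21, against 73.7 to 75.6 in the other 5. Vhl was 27.1 CPM in the acute AS vehicle library H18, against 31.6 to 32.8 in the other 5, and H18 is 1 of the 2 AS vehicle libraries on the AS CORT side of the division by low-quality reads. Hif1an was 41.2 CPM in the AS vehicle liver L19, against 35.7 to 36.5 in the other 4, and without L19 the WT ratio of Hif1an in liver passed the threshold with an unchanged log2 value of 0.16.

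The effect of CORT differed between liver and hippocampus of the continuous cohort for Epas1, by 0.534 on the log2 scale, for Egln1, by 0.329, and for Vhl, by 0.318, each higher in liver by the test of the difference itself.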

How the results depend on the processing

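Of 508 recomputed counts of members called, 503 stayed equal or within 1.5 times the reported count. Those that moved were in acute hippocampus. The count for AS against WT mice given CORT went from 0 to 2 with limma-voom (Epas1 and Hif1an) and to 1 without library H8 (Epas1), and leaving out single libraries gave 0 to 1. The count for the interaction went from 0 to 1 (Hif1a) with limma-voom and also without the AS vehicle libraries H17 and H18, and stayed at 0 without single libraries. With a covariate for libraries H17 to H24, the AS against WT difference with CORT turned from negative to positive for Hif3a (0.399), Epas1 (0.034), Hif1an (0.003), Egln3 (0.095) and Vhl (0.076) and from positive to negative for Hif1a (-0.013), none of them past the threshold; the cause was not tested, and all AS CORT libraries lie in that division. The acute interaction of Hif3a, a description, turned from 0.075 to -0.091 with limma-voom, -0.008 without library H8 and -0.121 without H17 and H18, and lay between -0.048 and 0.172 without single libraries. In liver, leaving out single libraries gave 2 to 3 members in WT and 3 to 4 in AS mice. Epas1, Egln1 and Arnt kept their liver calls in all 26 alternatives. The count of members differing between tissues in their CORT effect was 3 in every alternative but 1, with H9 and H13, where Vhl (0.263) was lost.

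Hippocampus and liver libraries carry like numbers in the labels, with genotype and treatment alike, but the labels do not say that a number is 1 mouse, and the numbers did not pair the libraries in the data (correlations of deviations from -0.0376 to 0.0421 over 18 pairs, 2 of which were best with their own number). With the replicate block, 7 of the 8 members compared differed between tissues and 3 in their CORT effect, as without it, and 88.4% and 15.8% of all genes did. Between genotypes or treatments the mice are different, and no paired analysis was possible because the groups share no numbers. At a floor of 3 counts, Hif3a and Arnt2 in liver cannot show differences of less than a few counts, and 4 to 6 mice in a group left standard errors of 0.0426 to 0.231 on the log2 scale for the members tested.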
